A study of Mus musculus with 6 samples.

Results

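The genes that make hemoglobin and the gas transport system of the red cell membrane were followed in 6 poly(A) RNA libraries of short-term hematopoietic stem cells (ST-HSC), multipotent progenitors with limited self-renewal. They were chosen by name: the adult alpha-globins Hba-a1 and Hba-a2, the adult beta-globins Hbb-bt and Hbb-bs, the carbonic anhydrases Car1 and Car2, the Rh complex genes Rhag and Rhd, and Slc4a1, which encodes band 3. Earlier results of these data were known when they were chosen. All 9 were found among the 53677 rows of the deposited table, and 6 reached the mean of 1 RPKM (reads normalised for both the length of the gene and the depth of the library) that was set for testing. Cells came from bone marrow of C57BL/6J mice and were sorted for Kit and CD48 and against lineage markers and CD150. The 3 wild-type (WT) libraries carry the genotype label dnTCF4-/-, and the 3 dnTCF4 libraries carry dnTCF4+/+, a transgene for a dominant-negative TCF4, which is made to block transcription through beta-catenin and TCF/LEF factors. The series text speaks of 3 mice of each genotype, so each library was taken as 1 animal. The labels used here state no age, sex, treatment or promoter for the transgene.

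Hemoglobin of adult mice is a tetramer of alpha and beta chains, and its genes are read at very high levels only late in red cell formation, after the factors GATA1 and KLF1 have acted. Red cells carry CO2 as bicarbonate: carbonic anhydrases make it inside the cell, and band 3 exchanges it for chloride across the membrane. RHAG and RHD sit beside band 3 in a membrane complex, and RHAG is needed for the complex to reach the surface. Progenitors such as ST-HSC are not red cells, but low levels of red cell genes are known in progenitors with erythroid potential.

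Copies of each globin share most of their sequence, which limits what can be said of 1 copy. In GENCODE M21 (GRCm38), the coding sequences of Hba-a1 and Hba-a2 were 429 bases long and differed at 1 position, C381T, counted from 1 at the first base of the start codon, with the Hba-a1 base first. Those of Hbb-bt and Hbb-bs were 444 bases long and differed at T417C, with the Hbb-bt base first. The 61 coding bases around each difference are shown because the copies can be told apart in the coding sequence at this base alone. The differing base is in capitals.
Hba-a1, chr11:32284313-32284373, + strand: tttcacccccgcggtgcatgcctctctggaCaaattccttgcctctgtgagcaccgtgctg
Hba-a2, chr11:32297130-32297190, + strand: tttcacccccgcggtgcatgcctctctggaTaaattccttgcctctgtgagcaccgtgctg
Hbb-bt, chr7:103812656-103812716, - strand: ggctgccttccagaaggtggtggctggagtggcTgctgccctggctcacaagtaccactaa
Hbb-bs, chr7:103826665-103826725, - strand: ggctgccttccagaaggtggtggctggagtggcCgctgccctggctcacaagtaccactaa

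The rest of the difference lies outside the coding sequence. Each longest coding transcript was split into all windows of a given length, and a window was called unique if it occurred on neither strand of the annotated transcripts of any other gene. Of windows of 75 bases, 37.8% were unique in Hba-a1, 19.0% in Hba-a2, 43.4% in Hbb-bt and 35.7% in Hbb-bs. At 150 bases these shares were 51.6%, 34.3%, 49.3% and 41.3%. In Car2, Rhd and Slc4a1 all windows of 50 to 150 bases were unique, and in Rhag all windows of 75 bases or longer. In Car1, 93.4% of windows of 75 bases were unique, and those that were not were shared with Gm5843, a row that reached at most 0.183 RPKM in any library. No source used here gives the read length or says how reads fitting several genes were counted, so single copies are reported as uncertain and their sums are given as well.

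**Figure D1:**
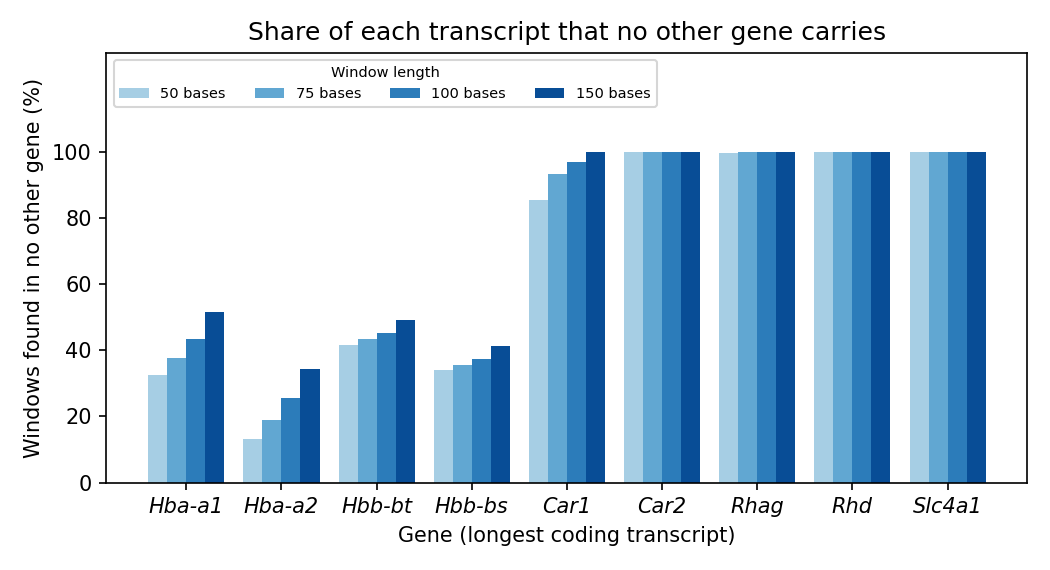
Percent of windows of 50, 75, 100 or 150 bases (bars from light to dark) in the longest coding transcript of each gene that occur in no other annotated gene. At 75 bases the globin copies stand at 19.0% to 43.4%, and Car1, Car2, Rhag, Rhd and Slc4a1 at 93.4% to 100%.

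Depth, as recovered from the values, ran from 61800000 to 67700000 counted reads among WT libraries and from 57400000 to 110900000 among dnTCF4 libraries. Of the genes that mark the gate, Kit was at 35.5 to 97.1 RPKM over the 6 libraries, Cd48 at 813 to 1415 and Slamf1, which encodes CD150, at 0.744 to 1.18. The share of immunoglobulin genes in the summed RPKM was 44.1% for WT replicate 1, 26.7% for replicate 2 and 25.5% for replicate 3, against 3.27% to 6.33% in dnTCF4. The median log2 fold change (dnTCF4 minus WT, on log2(RPKM + 1)) over 11326 genes tested was 0.14, and -0.04 after median ratio scaling, and changes below are to be read against these values. Of all genes tested, limma called 34 (0.300%) at an adjusted p under 0.05, with 5 (0.0441%) of these higher in dnTCF4 and 29 (0.256%) lower. In bulk RNA, more cells of a type and more RNA per cell cannot be told apart.

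Beta-globin, both Rh complex genes and Car2 stood higher in every dnTCF4 library than in any WT library, by 1.65 to 4.30 times in the ratio of means, but none of the 9 genes passed the test across all genes. Alpha-globin and band 3 stayed near the limit of detection in both genotypes. Of the 6 tested genes, 0 were called by limma (5 had an unadjusted p under 0.05, all higher in dnTCF4, and voom on recovered reads also called 0). Over all genes tested, 0.0441% were called higher, or 0.0618% with the replicate number as a block, and at an unadjusted p under 0.05 the shares were 7.52% higher and 2.10% lower. All 6 had a positive log2 fold change, with a median of 1.32, or 1.14 after median ratio scaling. The groups did not overlap for 5 of the 6, with dnTCF4 higher, while 15.4% of all genes tested showed this and 2.26% the reverse. Hbb-bt and Hbb-bs share much of their sequence, so these counts and the median do not rest on fully separate observations. A single value in 3 libraries against 3 cannot give an exact permutation p below 0.1.

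**Figure D2:**
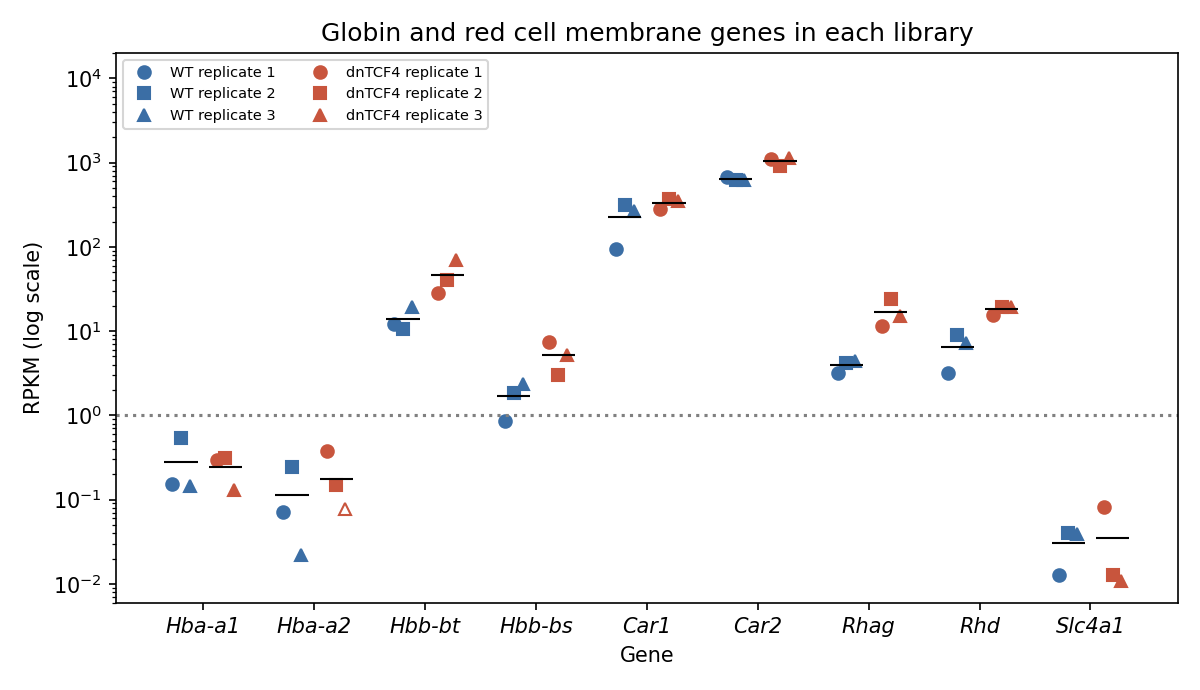
RPKM (log scale) of each gene in each library. Blue points are WT and red points dnTCF4, marker shapes are replicates 1 to 3, black lines are group means, and the dotted line is the mean of 1 RPKM required for testing. The open triangle is Hba-a2 in dnTCF4 replicate 3, with 0 reads, drawn at its limit of 0.0784 RPKM. Red points lie above all blue points for Hbb-bt, Hbb-bs, Car2, Rhag and Rhd.

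Among the globins, nearly all signal was beta. Hbb-bt (chr7:103812524-103813996, GRCm38) reached 12.1, 10.7 and 19.4 RPKM in WT replicates 1 to 3, in that order, and 28.3, 40.0 and 69.6 RPKM in dnTCF4 replicates 1 to 3, and this order of libraries is kept below. Replicate 3 was the highest library of each genotype, and the groups did not overlap. The means were 14.1 ± 4.67 and 46.0 ± 21.3 RPKM (SD, n = 3 each), a log2 fold change of 1.58 (SE 0.36, 95% confidence interval 0.73 to 2.43, limma adjusted p = 0.19). Hbb-bs (chr7:103826534-103828096) was lower throughout, with 0.861, 1.86 and 2.37 RPKM in the WT libraries and 7.49, 3.05 and 5.20 RPKM in the dnTCF4 libraries. Here dnTCF4 replicate 1 was the highest library and the groups again did not overlap (log2 fold change 1.19, SE 0.33, limma adjusted p = 0.30). The ratio of Hbb-bt to Hbb-bs was 14.1, 5.79 and 8.22 in WT and 3.77, 13.1 and 13.4 in dnTCF4, a spread within each genotype that leaves the groups overlapping (exact two-sided permutation p = 1.0).

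The summed reads of the copies do not depend on how reads were split between them, while summed RPKM does so because the copies differ in length (703 bases for Hbb-bt and 768 for Hbb-bs). Neither recovers reads that the counting may have left out. The beta sum reached 13.0, 12.6 and 21.8 RPKM in the WT libraries, from 584, 554 and 1048 reads, and 35.8, 43.0 and 74.8 RPKM in the dnTCF4 libraries, from 1617, 3377 and 3037 reads. Every dnTCF4 library was above every WT library, and the ratio of means was 3.24. The log2 fold change of 1.61 (SE 0.33, 95% confidence interval 0.83 to 2.38) did not pass (limma adjusted p = 0.15, exact two-sided permutation p = 0.1). With the replicate number as a block together with median ratio scaling it was 1.40 and passed narrowly (limma adjusted p = 0.0486). With the block alone it did not (limma adjusted p = 0.0517). The labels do not say that equal replicate numbers pair libraries. The 4 adult globins together averaged 16.2 ± 5.0 RPKM (WT) and 51.6 ± 20.5 RPKM (dnTCF4), a log2 fold change of 1.58 with a limma adjusted p of 0.14.

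Alpha-globin was barely read. Hba-a1 (chr11:32283511-32284465) gave 0.155, 0.538 and 0.146 RPKM in the WT libraries and 0.293, 0.311 and 0.129 in dnTCF4, which is 6 to 28 reads a library. Hba-a2 (chr11:32296489-32297298) had 3, 10 and 1 reads in WT and 16, 11 and 0 in dnTCF4, where a count of 0 allows up to 0.0784 RPKM (3 reads, counting error only). The highest library was WT replicate 2 for Hba-a1 and dnTCF4 replicate 1 for Hba-a2, and both genes overlapped between genotypes. The alpha sum was 0.392 ± 0.339 RPKM in WT and 0.421 ± 0.274 in dnTCF4. Without the filter on low values its log2 fold change was 0.04 (95% confidence interval -0.51 to 0.59, limma adjusted p = 0.96), a scale on which changes of such low values are understated. Alpha stood far below beta in every library, at a ratio of 0.0174, 0.0621 and 0.00769 in WT and 0.0188, 0.0107 and 0.00172 in dnTCF4. This ratio rests on 6 to 39 alpha reads a library and did not differ beyond its spread (exact two-sided permutation p = 0.50). Whether reads common to both alpha copies were left out of the counts was not tested. At each window length from 50 to 150 bases, the share of unique windows was lower in Hba-a2 than in either beta copy. That of Hba-a1 lay between the beta copies at 75 and 100 bases, below both at 50 bases and above both at 150 bases.

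Of the other globins in the mouse genome, 10 were listed and all were below 1 RPKM in every library. The embryonic genes Hbb-bh1 and Hba-x and the rows Hbb-bh0, Hbb-bh2 and Mb (myoglobin) were listed at 0 in all 6. Hbb-y, the embryonic beta-like globin, had 0, 1 and 0 reads in WT and 4, 6 and 15 in dnTCF4, higher without overlap. Ngb showed the reverse order, with 1 read in each WT library and 0 in each dnTCF4 library. Hbq1a, Hbq1b and Cygb overlapped between genotypes. At such trace levels neither order was tested. Over all genes read in any library, 10.4% lay higher in dnTCF4 without overlap.

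The promoters of both beta copies and of both Rh genes are shown because these genes stood higher together. They are RefSeq sequences (GRCm38.p6) of 300 bases, most of them before the annotated start, and 6 of the 9 genes had an entry. Capitals mark matches, on either strand, to GATAA (the core of a GATA factor site), to CACCC (bound by KLF1 in globin promoters), to the box CCAAT and to ATAAA (part of a TATA box). The first and the last of these can overlap.
Hbb-bt, chr7:103813874-103814173, - strand: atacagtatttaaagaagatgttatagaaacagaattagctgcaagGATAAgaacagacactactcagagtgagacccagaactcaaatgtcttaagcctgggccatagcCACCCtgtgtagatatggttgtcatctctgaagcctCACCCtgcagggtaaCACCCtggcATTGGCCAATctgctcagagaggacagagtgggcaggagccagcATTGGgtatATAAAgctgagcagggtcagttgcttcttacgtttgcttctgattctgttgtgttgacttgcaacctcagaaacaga
Hbb-bs, chr7:103827879-103828178, - strand: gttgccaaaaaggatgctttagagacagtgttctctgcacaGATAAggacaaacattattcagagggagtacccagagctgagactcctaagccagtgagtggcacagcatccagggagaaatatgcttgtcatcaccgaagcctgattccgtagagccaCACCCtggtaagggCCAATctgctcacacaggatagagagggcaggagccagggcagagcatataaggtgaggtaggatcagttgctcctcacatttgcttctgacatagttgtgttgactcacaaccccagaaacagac
Rhag, chr17:40810899-40811198, + strand: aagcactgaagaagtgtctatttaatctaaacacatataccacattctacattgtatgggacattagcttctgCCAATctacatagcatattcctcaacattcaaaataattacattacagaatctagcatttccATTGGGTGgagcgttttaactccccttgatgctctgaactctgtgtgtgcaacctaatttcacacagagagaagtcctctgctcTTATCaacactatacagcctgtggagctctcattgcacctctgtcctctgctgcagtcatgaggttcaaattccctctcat
Rhd, chr4:134864286-134864585, + strand: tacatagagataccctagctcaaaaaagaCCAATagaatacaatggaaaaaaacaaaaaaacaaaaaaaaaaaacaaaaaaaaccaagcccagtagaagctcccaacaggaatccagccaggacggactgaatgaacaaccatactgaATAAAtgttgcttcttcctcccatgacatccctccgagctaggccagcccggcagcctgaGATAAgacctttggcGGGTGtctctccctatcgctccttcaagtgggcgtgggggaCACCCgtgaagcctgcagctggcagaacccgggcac

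The letters GATAA occurred in 6 of the 6 promoters, alpha copies included, against 25.4% of the 32851 promoters in the table. The same held for the KLF1 letters CACCC, against 57.5%, and for the box CCAAT, against 37.4%. ATAAA occurred in 2 of 6, Hbb-bt and Rhd, against 40.0% of all. The match began 27 bases before the start in Hbb-bt and 102 bases before it in Rhd. Hbb-bs and both alpha copies carry ATATAAG shortly before the start, which ATAAA does not match. The count therefore does not say which promoters have a TATA box. The TCF/LEF letters CTTTGAT, searched on both strands, occurred in 0 of 6, against 3.7% of all, which says only that these letters are not in these windows. In Rhag and Rhd the GATAA match began 31 and 42 bases before the start, and in Hbb-bt and Hbb-bs 204 and 209 bases before it. The promoters of Hba-a1 and Hba-a2 were identical over 297 aligned bases, those of Hbb-bt and Hbb-bs at 56.2% of 299 aligned bases without gaps.

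Both Rh complex genes stood apart between genotypes. Rhag (chr17:40811126-40840754), which encodes the Rh-associated glycoprotein, gave 3.16, 4.20 and 4.41 RPKM in the WT libraries and 11.5, 23.8 and 15.3 RPKM in the dnTCF4 libraries, from 469 to 6169 reads. The lowest dnTCF4 library stood well above the highest WT library. The means were 3.92 ± 0.670 and 16.9 ± 6.30 RPKM (SD, n = 3 each), 4.30 times apart, with a log2 fold change of 1.81 (SE 0.28, 95% confidence interval 1.16 to 2.46, limma adjusted p = 0.076). Rhag is the gene of this set nearest to the threshold. With the replicate block its limma adjusted p was 0.0504, with the block and median ratio scaling it was 0.027, where 0.169% of all genes were called higher, and with libraries weighted by their noise 0.0487, where 0.283% were. Rhd (chr4:134864536-134896172), the partner chain that carries the Rh antigen in humans, gave 3.18, 8.99 and 7.24 RPKM in the WT libraries and 15.7, 19.6 and 19.1 RPKM in the dnTCF4 libraries. WT replicate 1 was the lowest library, and the dnTCF4 libraries lay close together. The log2 fold change was 1.44 (SE 0.33, limma adjusted p = 0.18). The ratio of Rhag to Rhd was 0.993, 0.467 and 0.609 in WT and 0.728, 1.22 and 0.802 in dnTCF4, and the groups overlapped (exact two-sided permutation p = 0.40). The other Rh family members of mouse, Rhbg and Rhcg, transporters of ammonium in other tissues, were listed at 0 in all libraries and below 1 RPKM in all libraries, respectively.

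Carbonic anhydrases were the most abundant genes of the set. Car2 (chr3:14886273-14900770), a fast form of the enzyme made in many cell types, gave 669, 616 and 629 RPKM in the WT libraries and 1102, 923 and 1140 in dnTCF4, from 92177 to 248013 reads. The WT libraries lay within a narrow band and all dnTCF4 libraries above it. The means were 638 ± 27.7 and 1055 ± 116 RPKM, 1.65 times apart (log2 fold change 0.72, SE 0.16, 95% confidence interval 0.34 to 1.10, limma adjusted p = 0.18). After median ratio scaling the log2 fold change was 0.50 (limma adjusted p = 0.55). Car1 (chr3:14766216-14808368), the form abundant in mature red cells, gave 94.6, 311 and 269 RPKM in the WT libraries and 278, 374 and 347 in dnTCF4. WT replicate 1 stood apart at the low end, and the groups overlapped (log2 fold change 0.73, SE 0.44, 95% confidence interval -0.30 to 1.75, limma adjusted p = 0.64). Without WT replicate 1 the log2 fold change of Car1 was 0.19. The ratio of Car1 to Car2 was 0.141, 0.504 and 0.429 in WT and 0.252, 0.405 and 0.304 in dnTCF4 (exact two-sided permutation p = 1.0).

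WT replicate 1 was the lowest of the 6 libraries for 4 of the 6 tested genes, Hbb-bs, Car1, Rhag and Rhd, while it was the lowest for 36.4% of all genes tested. It was also the library with the largest immunoglobulin share, 44.1%. With immunoglobulin genes left out of the table before scaling, the log2 fold change was 1.64 for Rhag, 1.27 for Rhd, 1.05 for Hbb-bs and 0.52 for Car1. Without WT replicate 1, the log2 fold change was 1.69 for Rhag, 1.07 for Rhd, 0.95 for Hbb-bs and 1.50 for the beta sum.

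Slc4a1 (chr11:102348824-102366203), the anion exchanger and the most abundant protein of the mature red cell membrane, gave 0.0129, 0.0397 and 0.0393 RPKM in the WT libraries and 0.0811, 0.0129 and 0.0107 in dnTCF4. These values stand for 3 to 25 reads a library. dnTCF4 replicate 1 was the highest library and dnTCF4 replicate 3 the lowest, so no difference was detectable at this depth (log2 fold change 0.01 without the filter, 95% confidence interval -0.07 to 0.08, limma adjusted p = 0.96). On the scale of log2(RPKM + 1), values this low keep any fold change near 0. The narrow interval therefore does not show that levels were equal. Ordered by mean RPKM over the 6 libraries, the set ran from Car2 (847) and Car1 (279) to Hbb-bt (30.0), Rhd (12.3), Rhag (10.4), Hbb-bs (3.47), Hba-a1 (0.262), Hba-a2 (0.144) and Slc4a1 (0.0328). Within each genotype, the neighbours Rhd and Rhag, Hba-a1 and Hba-a2, and Hba-a2 and Slc4a1 overlapped, and the other neighbours did not.

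**Figure D3:**
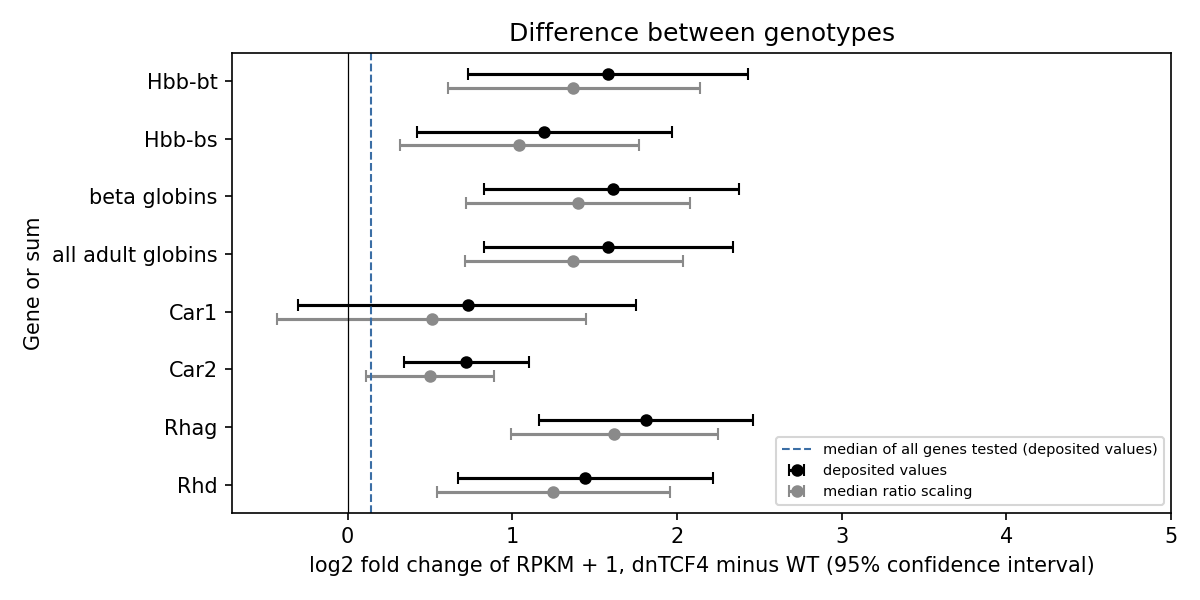
log2 fold change of RPKM + 1 (dnTCF4 minus WT) with its 95% confidence interval for the 6 tested genes and for the globin sums. Black points are deposited values, grey points median ratio scaling, and the dashed line is the median of all genes tested, 0.14. Rhag has the highest value, 1.81, and the interval of Car1 spans 0.

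Further genes, 91 in 8 lists by role or family, were read beside the set. Besides genes of red cells they include other members of the same gene families, which need not be red cell genes. Of 44 that were tested, 0 were called by limma (5 higher and 1 lower at an unadjusted p under 0.05, and voom also called 0). The 5 are 11.4% of the 44, against 7.52% of all genes tested and 2.10% for the lower direction, and the median log2 fold change was 0.19, against 0.14 over all genes tested. Some of the 5, Klf1 and Zfpm1 among them, reached the mean of 1 RPKM only through dnTCF4. The median of the 6 tested genes of the set was 1.32, and the difference from the lists was not tested. Both the set and the lists were chosen with earlier results of these data known, so this contrast may depend on that choice.

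Of 12 genes of the membrane skeleton and the band 3 anchor, 7 were below 1 RPKM in every library, among them Sptb (a spectrin chain), Ank1 (ankyrin, which ties band 3 to spectrin) and Epb42 (protein 4.2). Of the 5 tested, 3 had a positive log2 fold change, and the median was 0.23, or 0.01 after median ratio scaling. Stom, the membrane protein stomatin, averaged 49.3 ± 5.62 RPKM (WT) and 74.3 ± 21 RPKM (dnTCF4), with a limma adjusted p of 0.52. Mpp1 (p55) was at 31.5 ± 2.91 and 37.0 ± 2.51, and Epb41 (protein 4.1) at 1.92 ± 0.576 and 2.50 ± 0.446. Of 17 other red cell surface genes 12 were tested, 8 of them with a positive log2 fold change, or 5 after median ratio scaling. Slc14a1, the urea transporter that carries the Kidd antigen in humans, averaged 24.8 ± 2.14 RPKM (WT) and 44.5 ± 4.61 RPKM (dnTCF4), with groups that did not overlap (log2 fold change 0.82, SE 0.17, limma adjusted p = 0.16). Ermap, an erythroid adhesion protein, was at 3.96 ± 2.28 and 8.03 ± 2.67, and Aqp1, the red cell water channel, at 3.81 ± 2.61 and 7.19 ± 3.18, both with overlapping groups. Without WT replicate 1, the log2 fold change went from 0.96 to 0.48 for Ermap and from 0.85 to 0.40 for Aqp1.

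Other transporters and enzymes of the same families were compared with the members. Of 14 other carbonic anhydrases, 3 were tested. Car9 (a membrane form induced by low oxygen) averaged 19.4 ± 1.24 RPKM (WT) and 23.6 ± 2.25 RPKM (dnTCF4), Car13 averaged 4.62 ± 1.22 and 5.98 ± 1.40, and Car3 averaged 8.36 ± 1.93 and 9.97 ± 4.14. The log2 fold changes were 0.27, 0.31 and 0.18, and that of Car3 turned to -0.02 after median ratio scaling. Of 9 other SLC4 transporters, Slc4a7 was at 1.44 ± 0.446 and 1.85 ± 0.728 RPKM and Slc4a8 at 1.80 ± 0.369 and 1.05 ± 0.556, and both overlapped between genotypes.

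Late red cell genes and regulators gave a mixed picture. Of 12 genes for globin folding and late red cell function, 11 were in the table and 8 tested, with a median log2 fold change of 0.21, or 0 after median ratio scaling. Hemgn (hemogen, a nuclear protein of erythroid and other progenitors) ran against the set. Its WT libraries gave 24.6, 16.1 and 17.8 RPKM and its dnTCF4 libraries 9.16, 7.50 and 9.20 RPKM, with groups that did not overlap (log2 fold change -1.07, SE 0.21, limma adjusted p = 0.14). Tal1, a transcription factor of stem and erythroid cells, averaged 4.81 ± 1.18 and 7.90 ± 3.03 RPKM. Alas2, the erythroid enzyme that starts heme synthesis, was at 0.059 to 0.565 RPKM in WT and 0.132 to 0.384 in dnTCF4. Of 15 regulators and early erythroid genes 14 were tested, 11 with a positive log2 fold change, or 7 after median ratio scaling. The 3 with a negative value were Gfi1b (-0.35), Lyl1 (-0.16) and Nfe2 (-0.07). Gata1 gave 24.1, 43.2 and 39.6 RPKM in the WT libraries and 49.7, 60.6 and 21.6 in those of dnTCF4, with overlap. Its log2 fold change was 0.22, or 0 after median ratio scaling (limma adjusted p = 0.83 before scaling). Klf1, the activator of adult beta-globin, was at 0.165, 0.942 and 0.743 RPKM in the WT libraries and reached 1.59, 1.41 and 1.86 in those of dnTCF4, without overlap (log2 fold change 0.73, SE 0.22, limma adjusted p = 0.32). Zfpm1 (FOG1, the partner of GATA1) was at 0.838 ± 0.0262 and 1.27 ± 0.0708. Its log2 fold change was 0.3, or 0.19 after median ratio scaling (limma adjusted p = 0.52 before scaling). Klf1 and Zfpm1 both averaged under 1 RPKM in WT and reached the mean required for testing only through dnTCF4. Their values are therefore given as description only. Zbtb7a was at 1.91 ± 0.227 and 2.54 ± 0.365.

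**Figure D4:**
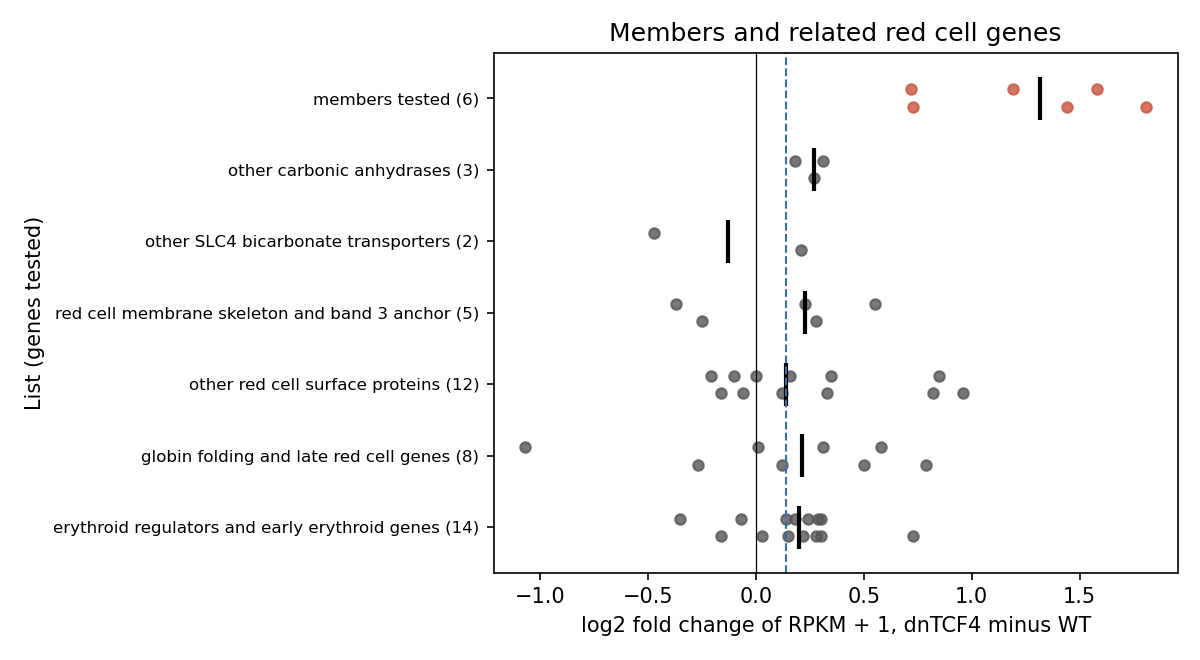
log2 fold change of RPKM + 1 (dnTCF4 minus WT) of each tested gene (points) and the median of each list (bar). The number of genes tested is in brackets and the dashed line is the median of all genes tested, 0.14. The 6 tested genes of the set (red) lie between 0.72 and 1.81, and the medians of the related lists between -0.13 and 0.27.

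Markers of other cells were summed in each library. The 10 late erythroblast and red cell markers outside the set added up to 43.4 to 45.8 RPKM in WT and 37.5 to 46.3 in dnTCF4, and the groups overlapped. Of the 5 tested, 4 had a positive log2 fold change, or 3 after median ratio scaling. Hemgn, the tested marker with a negative value, made up much of the WT sum. Without it, an alternative chosen after its values were seen, the other 9 markers summed to 18.8, 27.4 and 28.0 RPKM for WT. They summed to 28.4, 37.4 and 37.1 RPKM for dnTCF4, higher without overlap, though the highest WT and lowest dnTCF4 library lay close together. Leaving out the tested marker with a negative value favours a higher remainder. After division by the median ratio factors, 0.9326 for WT replicate 2 and 1.0577 for dnTCF4 replicate 1, the groups overlap. Bpgm, the largest part of this remainder, had a log2 fold change of 0.31, or 0.10 after median ratio scaling. Of all 10, 5 were below 1 RPKM in every library, among them Alas2, Epb42, Trim58 and Trim10. The 11 megakaryocyte and platelet markers added up to 57.6 to 81.4 RPKM in WT and 147 to 173 in dnTCF4. Most of this was Pf4, at 49.9, 62.3 and 42.4 RPKM for WT and 128, 112 and 153 RPKM for dnTCF4. Of the tested markers, 6 of 6 had a positive log2 fold change, or 4 after median ratio scaling, and 3 had a limma unadjusted p under 0.05. Pf4, Gp9 and Treml1 did not overlap between genotypes, while Ppbp, Itga2b and Gp1ba did. The 11 neutrophil markers added up to 621, 755 and 3128 RPKM for WT and to 3078, 3730 and 7611 RPKM for dnTCF4, in the order of replicates. Replicate 3 was therefore the highest library of its genotype for neutrophil markers as it was for Hbb-bt. Without dnTCF4 replicate 3 the log2 fold change of the beta sum was 1.30, and without WT replicate 3 it was 1.85. Of the 10 neutrophil markers tested, 9 had a positive log2 fold change. A limma unadjusted p under 0.05 was given by 8 of them, all higher in dnTCF4. B lineage and plasma cell markers summed to 50687 to 95665 RPKM (WT) and 5071 to 11645 RPKM (dnTCF4), without overlap. The sums of the T and NK cell, monocyte and mast cell lists overlapped between genotypes, but single markers did not all do so. Of 7 tested monocyte and macrophage markers, 4 had a positive log2 fold change and 3 a negative one, with a median of 0.47. After median ratio scaling 3 of 6 were positive, with a median of -0.01. A limma unadjusted p under 0.05 was given by 3 of the 7, all higher in dnTCF4 (none was called by limma). These included Adgre1, which encodes the macrophage antigen F4/80, at 1.43, 1.09 and 0.787 RPKM for WT and 2.60, 3.24 and 2.84 RPKM for dnTCF4. Of 7 tested mast cell and basophil markers, 3 had an unadjusted p under 0.05, all lower in dnTCF4, and of 4 tested T and NK cell markers 1 did, higher in dnTCF4. Over all genes tested, the shares at a limma unadjusted p under 0.05 were 7.52% higher and 2.10% lower. Adgre1, Bpgm and the single megakaryocyte markers were named after their values were seen. The part of other cell types in the beta-globin difference was not tested.

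**Figure D5:**
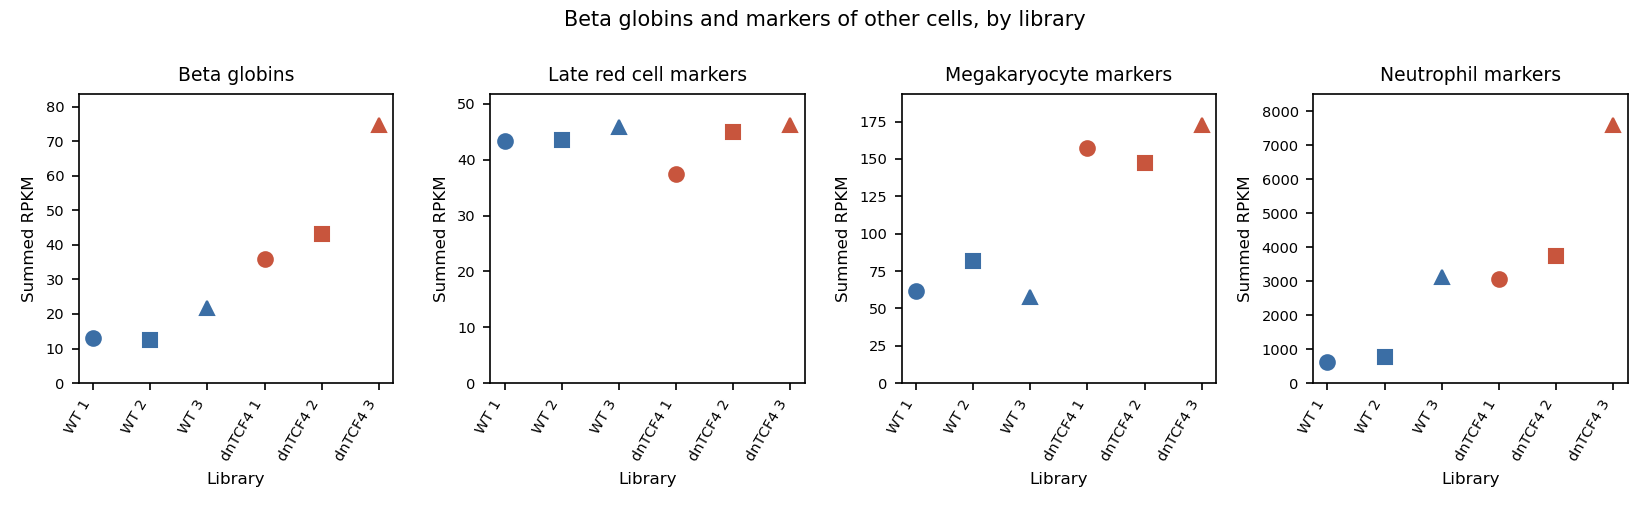
Summed RPKM in each library for the beta-globins (Hbb-bt and Hbb-bs), for late red cell markers outside the set, for megakaryocyte and platelet markers and for neutrophil markers. Blue is WT, red is dnTCF4 and each axis starts at 0. The late red cell sum lies between 37.5 and 46.3 with Hemgn included, and the beta-globin sum between 12.6 and 74.8.

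The genes whose values ran most like those of the set over the 6 libraries were taken by Pearson's r on log2(RPKM + 1), out of 11088 tested genes outside the set and outside the immunoglobulin genes. For the sum of the adult globins these were Kif16b (r = 0.998), Tmem171 (0.997), Ccl6 (0.997), Gm28857 (0.995) and Smim24 (0.995), and 253 genes had an r over 0.95. For Rhag they included Rundc1 (0.993), Gulp1 (0.991), Glul (0.987) and Arl4a (0.987), and 82 genes had an r over 0.95. Ccl6, a chemokine of myeloid cells, averaged 17.5 ± 3.88 RPKM (WT) and 37.7 ± 8.01 RPKM (dnTCF4), and Glul, glutamine synthetase, averaged 47.2 ± 1.58 and 85.5 ± 10.4. With 6 libraries of 2 genotypes that share their depth and scaling, these values describe the libraries and carry no test. Gm28857, Rundc1 and Glul overlap a gene on the other strand, from which reads without strand cannot be told apart.

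Ratios between members, which do not depend on the scaling of libraries, were tested for 5 pairs. All adult globins stood to Car2 at 0.0198, 0.0217 and 0.0349 in WT and 0.0331, 0.0471 and 0.0657 in dnTCF4. On the log2 scale the difference was 0.92, with overlapping groups (exact two-sided permutation p = 0.20, adjusted over the 5 ratios 0.83). None of the 5 ratios differed beyond its spread (adjusted exact permutation p from 0.83 to 1.0), and the design could not have given an unadjusted p below 0.1. The ratio of Hba-a1 to Hba-a2 was not tested because 1 library had 0 reads of Hba-a2.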

How the data were processed

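Poly(A) RNA of 3 WT and 3 dnTCF4 libraries was analysed. Per the labels' protocols, a SMART-Seq v4 kit gave the complementary DNA and Nextera XT the libraries, neither of which marks strand. The authors deposited 1 table of RPKM values for 53677 symbols. Per the submitters' processing notes, the tools were STAR, edgeR, DESeq2 and featureCounts, with GRCm38 and mm10 as builds. Their roles and versions, the annotation and the counting of reads fitting several genes appear in no source used here. Reads were recovered from RPKM and GENCODE M21 exon lengths (49804 symbols matched): 94.0% to 94.7% of the values checked were whole within 0.02 of a read. Limits for a count of 0 are 3 reads and cover counting error only.

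Testing used limma 3.58.1 (R 4.3.3) on log2(RPKM + 1) for genes averaging 1 RPKM or more (eBayes with trend, two-sided, genotype as the only term, Benjamini-Hochberg over all genes tested, threshold 0.05), and the script was tested on simulated data. Fold changes on this scale understate changes of low values. Globin copies were replaced by their sums in separate fits of the whole table. The 9 genes and the lists were chosen with earlier results of these data known. Named genes are the 9, in each list the 3 tested genes of lowest p, or fewer, and the 5 genes most like the globin sum and Rhag. Other genes named from the lists, such as Hbb-y, Alas2, Sptb, Ank1, Epb42, Trim58, Trim10, Rhcg, Adgre1 and those listed at 0, were named after their values were seen. The same holds for Gata1, Gfi1b, Lyl1, Nfe2, Ngb, Hbq1a, Hbq1b and Cygb. Ahsp is not analysed here, and some genes that the rule names are not reported here. Both genotypes have replicates 1 to 3 in the labels. Libraries with the same number deviated together from the group means, with correlations of 0.17, 0.35 and 0.30. Each was above the bound of 0.1, and on this ground a replicate block was fitted as an alternative. Libraries with different numbers were not compared, and the labels do not say what a number shares. Pairing is therefore not established, and fits with the block depend on a choice made from these same data. Tables and plots were made in Python 3.11.15 with matplotlib 3.10.9, numpy 2.4.6 and pandas 2.3.3.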

Additional observations from a re-analysis of the deposited data

How the results depend on the processing

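Directions of the 6 tested genes and of both globin sums were the same under every alternative run: pseudocounts of 0.1 and 0.5, a mean of at least 5 RPKM (where Hbb-bs was not tested), no filter, median ratio scaling, immunoglobulin genes left out, the replicate block, library weights, voom on recovered reads and each library left out. The number of members called went from 0 to 1, Rhag, with library weights (log2 fold change 1.66) and with the block and median ratio scaling (1.62). In that last fit the beta sum was called as well, at 1.40. With the replicate block alone 0 members were called, and 49 genes were called over the table. The log2 fold change stayed at 1.61 for the beta sum and 1.58 for all adult globins. The block alone changed no call among the members, the globin sums or the related genes. Leaving out 1 library gave 1.30 to 1.85 for the beta sum, 1.29 to 1.81 for all adult globins, 1.55 to 2.04 for Rhag and 0.19 to 1.04 for Car1, with 0 members and 0 related genes called.

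Over all genes, the 34 calls became 6 without a filter, 86 with library weights, 14 by voom, 127 with the block and median ratio scaling, 0 with immunoglobulin genes left out (limma, with 603 genes at an unadjusted p under 0.05) and 7 to 34 without 1 library. The log2 ratio of Hbb-bt to Hbb-bs, -0.01, turned to 0.05 with a pseudocount of 0.1 and ran from -0.32 to 0.60 without 1 library, and that of Car1 to Car2, 0.01, from -0.56 to 0.35. Car3, at 0.18, turned to -0.02 after median ratio scaling with and without the block, to 0.00 with immunoglobulin genes left out, to -0.01 without WT replicate 1 and to -0.09 without dnTCF4 replicate 1, with a range of -0.09 to 0.49 over the libraries left out. Leaving out 1 library also moved values by over 1.5 times for Stom (0.34 without dnTCF4 replicate 2), Tal1 (0.32 without dnTCF4 replicate 3), Epb41 (0.10 without WT replicate 1), Car13 (0.15 without dnTCF4 replicate 2) and Slc4a7 (0.01 without dnTCF4 replicate 3), none of which was called. The causes were not tested. Depth limits the alpha-globins and Slc4a1, which rest on 0 to 28 reads a library.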
